A study of Mus musculus with 3 samples.

Results

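The 39 Hox genes of the mouse were followed in heart tubes at embryonic day 9.5. Members were all gene symbols made of Hox, a cluster letter from a to d and a number, 39 of the 23337 genes counted. The series compared 2 bulk RNA-seq libraries from Sox7-null (-/-) heart tubes with 1 library from wild-type heart tubes. The labels give the strain of neither group and do not say whether a tube is 1 embryo or a pool. Because there is 1 wild-type library, every p-value rests on how far apart the 2 null libraries lie, largely as shared over all genes. As the source of a tube is not given, that distance may be technical. Sox7 encodes a SoxF transcription factor made in endothelium and endocardium, and the series asks which heart tube transcripts differ without it.

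Hox genes encode homeodomain transcription factors that give cells their position along the head-to-tail axis. They lie in 4 clusters, and genes at the same place in different clusters form paralogue groups numbered from the anterior end. Low-numbered groups are switched on first and reach furthest forward, into the hindbrain, pharyngeal arches and the progenitors behind the heart, and high-numbered groups mark trunk, tail, limb and hindgut. Retinoic acid and Cdx factors activate them, and their proteins bind DNA with TALE partners of the Pbx and Meis families. In the heart field, Hoxb1 and Hoxa3 are known to mark retinoic acid-responsive progenitors of the outflow tract and venous pole.

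The sequences upstream of 4 members are given because these genes bracket the result described below: Hoxb1, Hoxa5 and Hoxc4 were lower in the null libraries, and Hoxb4 was the most abundant member. Each runs 5′ to 3′ over the 250 bases before the start of the gene in RefSeq, build GRCm38.p6. Capitals mark a match to the Pbx-Hox motif TGATNNAT or to the retinoic acid receptor half-site AGGTCA, searched on both strands, so that a match on the opposite strand reads TGACCT.
Hoxb1, chr11:96365508-96365757, plus strand: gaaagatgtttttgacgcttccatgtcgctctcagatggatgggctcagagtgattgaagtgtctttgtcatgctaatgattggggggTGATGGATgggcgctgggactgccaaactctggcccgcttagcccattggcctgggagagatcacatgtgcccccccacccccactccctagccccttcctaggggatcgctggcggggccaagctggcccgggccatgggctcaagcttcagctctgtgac
Hoxa5, chr6:52204588-52204837, minus strand: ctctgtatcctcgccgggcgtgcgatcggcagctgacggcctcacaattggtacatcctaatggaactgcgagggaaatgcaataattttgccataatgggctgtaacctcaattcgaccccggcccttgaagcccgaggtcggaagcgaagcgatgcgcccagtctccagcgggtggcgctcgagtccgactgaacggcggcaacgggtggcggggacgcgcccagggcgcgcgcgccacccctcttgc
Hoxc4, chr15:103034145-103034394, plus strand: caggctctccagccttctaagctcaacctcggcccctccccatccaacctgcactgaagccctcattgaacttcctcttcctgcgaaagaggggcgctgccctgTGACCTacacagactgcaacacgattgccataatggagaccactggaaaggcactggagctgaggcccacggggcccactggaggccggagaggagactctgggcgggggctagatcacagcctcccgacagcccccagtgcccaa
Hoxb4, chr11:96318017-96318266, plus strand: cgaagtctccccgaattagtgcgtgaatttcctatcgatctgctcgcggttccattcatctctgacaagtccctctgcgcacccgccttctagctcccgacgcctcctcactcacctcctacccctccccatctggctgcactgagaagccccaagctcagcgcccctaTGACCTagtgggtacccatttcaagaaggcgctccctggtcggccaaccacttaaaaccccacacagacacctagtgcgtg
Hoxb1 held 1 Pbx-Hox match, TGATGGAT, which starts 162 bases before the gene. This motif was present in 7.68% of 32851 promoter windows of this length. Hoxc4 and Hoxb4 held 1 half-site each, a motif found in 14.0% of windows, and Hoxa5 held neither. The Sox core AACAAT (9.42% of windows) and the Cdx core TTTATG (10.8%) matched in none of these 4 windows. The table held a window for 6 of the 10 Hox genes with 10 or more reads. A match is a description of letters and does not by itself show binding.

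The null libraries held 13139823 and 13618338 gene-assigned reads and the wild type 13789388. Sox7 had 2 and 7 reads against 222. Heart muscle genes were abundant, with a summed CPM (reads scaled to a common library size, with TMM factors) of 16784 and 14677 in the null libraries against 10487, and 6 of 8 passed as higher in edgeR, against 11.3% of all tested genes. With the trend on transcript length and GC removed 4 passed, and Myh6 (edgeR adjusted p = 0.618) and Ryr2 (edgeR adjusted p = 0.0682) did not. The extraction protocol in the labels names retinal material. Of 8 retina markers, 4 had 0 reads in every library, Six6, Crx and Rcvrn among them. Rax had at most 2 and Nrl at most 4, while Pax6, also made in the neural tube, had 24, 14 and 18.

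Hox transcripts were sparse. Sox7-null 1 held 181 such reads, Sox7-null 2 held 352 and the wild type 560, or 13.4, 25.5 and 42.2 CPM. Their summed level was thus 2.16-fold higher in the wild type than in the null libraries (95% exact interval 1.91 to 2.44, which covers counting error only), and the null libraries themselves lay far apart. No p is given for this sum, since with 2 libraries against 1 the smallest p of a one-sided exact permutation test is 0.333. In bulk tissue, fewer cells of a type and less RNA per cell cannot be told apart.

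In the wild type 30 of the 39 genes had at least 1 read, against 16 in Sox7-null 1 and 15 in Sox7-null 2. Of all 23337 genes counted, 16154 had a read in the wild type, 15884 in Sox7-null 1 and 15854 in Sox7-null 2. In some library 73.9% of all genes had a read, and of the Hox genes 32 did. The 7 without any read were Hoxa6, Hoxa9, Hoxa13, Hoxb6, Hoxb13, Hoxc12 and Hoxc13. A count of 0 over both null libraries allows a level of up to 0.110 CPM, and in the wild-type library alone 0.226 CPM. Reads in all 3 libraries were found for 11 members, and 9 of these 11 belonged to paralogue groups 1 to 4.

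**Figure D1:**
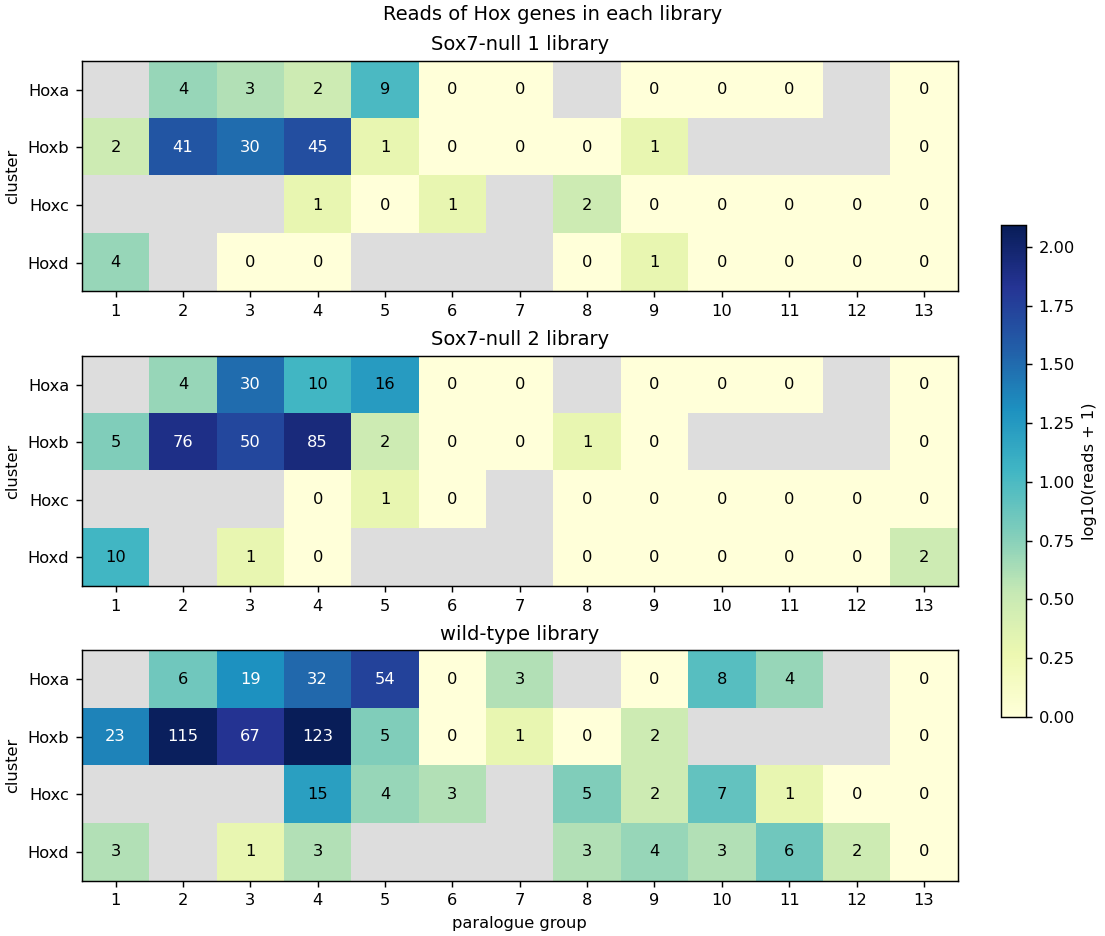
Read count of each Hox gene, by cluster (rows) and paralogue group (columns), with 1 panel per library; grey marks positions without a gene or not reported, and colour shows log10(reads + 1). Reads lie mostly in groups 1 to 5 in every library, and groups 10 and 11 hold reads only in the wild-type panel.

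By cluster, Hoxb held most of the reads, with 120 and 219 for the nulls against 336, 66.3%, 62.2% and 60.0% of all Hox reads. Hoxa held 52 and 119 against 162. These clusters were 2.04-fold (95% exact interval 1.75 to 2.38) and 1.95-fold (1.56 to 2.43) higher in the wild type. Hoxc had 4 and 1 reads against 37, a 15.2-fold difference (5.96 to 49.6), and Hoxd had 5 and 13 against 25 (2.86-fold, 1.497 to 5.56). Hoxc was therefore nearly empty in both null libraries while Hoxa and Hoxb were not, and the difference between clusters was not tested. Hoxc starts at group 4, so cluster and paralogue group cannot be told apart in this difference. Of the Hoxd reads, Hoxd1 alone gave 4 and 10 for the nulls against 3. The log2 ratio of null to wild type was -5.27 for Hoxc, -0.999 for Hoxd and -0.50 for Hoxa without Sox7-null 1, and -3.23, -2.35 and -1.66 without Sox7-null 2.

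Along the paralogue groups, the gap between the wild type and the null libraries was wider at higher numbers. Groups 1 to 4 (12 genes) had 166 and 330 reads in the null libraries against 443, a level 1.84-fold higher in the wild type (95% exact interval 1.61 to 2.09). Groups 5 to 8 (11 genes) had 13 and 20 reads against 78, a 4.86-fold difference (3.20 to 7.54). Groups 9 to 13 (16 genes) had 2 and 2 reads against 39, a 20.0-fold difference (7.23 to 77.2). The intervals of these 3 sums do not overlap between the first and the other sets, and they cover counting error in 1 wild-type library. These 3 sets were drawn after the counts were seen.

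**Figure D2:**
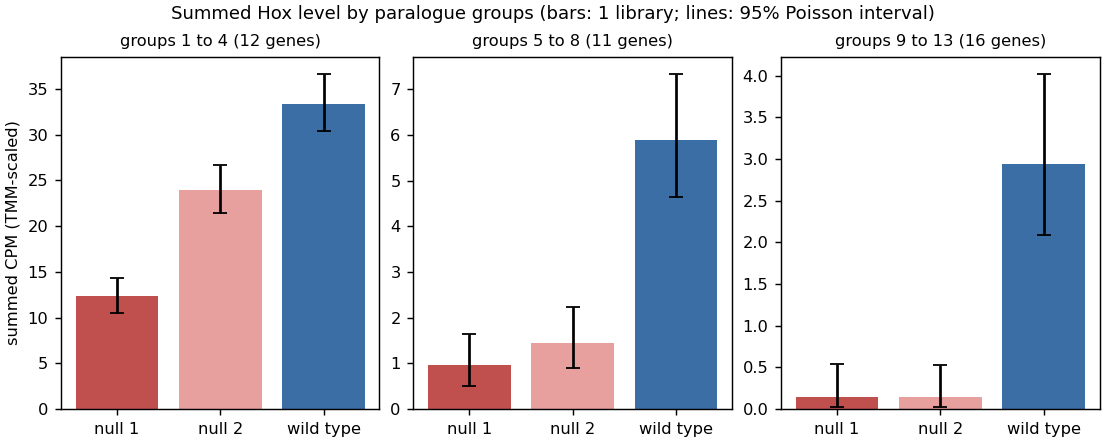
Summed TMM-scaled CPM of Hox genes in paralogue groups 1 to 4, 5 to 8 and 9 to 13, with 1 bar per library and lines for the 95% Poisson interval of the count; each panel has its own axis from 0. The null bars fall from 12.3 and 23.9 CPM in the first panel to 0.148 and 0.145 in the last, where the wild-type bar stands at 2.94.

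In group 1, the anterior end, 1 gene fell and the others did not pass the test. Hoxd1, which entered the test only through Sox7-null 2, had 4 and 10 reads against 3. It was the only gene of the 10 compared with a wild-type level below both null libraries. Its log2 fold change of 1.15 ± 1.22 (SE, as after each ± here) did not pass (edgeR adjusted p = 0.539). Hoxb1, which sets the identity of the fourth hindbrain segment and is made in the posterior second heart field, went the other way. It had 2 and 5 reads against 23, or 0.148 and 0.363 CPM against 1.73, and it fell in the null libraries by 2.71 ± 0.84 on the log2 scale (edgeR adjusted p = 0.0366). The 2 null libraries did not overlap the wild type. Hoxb1 entered the test only through its wild-type reads, so it had to differ to be among the genes tested.

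In groups 2 and 3 no gene passed the test. Hoxb2, a hindbrain gene, had 41 and 76 reads against 115. Its log2 fold change was -1.02 ± 0.39 (edgeR adjusted p = 0.0800). Its paralogue Hoxa2, which patterns the second pharyngeal arch, had only 4 and 4 against 6. For Hoxb3 the 30 and 50 null reads stood against 67, a log2 difference of -0.78 ± 0.44 (edgeR adjusted p = 0.221). For both Hoxb genes the wild type lay above both null libraries. Hoxa3, needed for thymus and parathyroid and made in cardiac neural crest, had 3 reads in Sox7-null 1 and 30 in Sox7-null 2, against 19. Its null libraries lay on either side of the wild type and its log2 fold change was -0.25 ± 0.90 (edgeR adjusted p = 0.875), or -2.50 from Sox7-null 1 alone and 0.59 from Sox7-null 2 alone. Hoxd3 had 0 and 1 reads against 1.

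Group 4 was the group with most reads in the wild type, and 2 of its 4 genes fell. Hoxa4 had 2 and 10 reads against 32, or 0.148 and 0.726 CPM against 2.41, and its log2 fold change was -2.43 ± 0.77 (edgeR adjusted p = 0.0408), or -1.68 without Sox7-null 1 and -3.72 without Sox7-null 2. Hoxc4, the most anterior gene of its cluster, had 1 and 0 reads against 15 and a ratio of wild type to null of 30.8 (95% exact interval 4.74 to 1298). Its fitted log2 fold change was -4.63 ± 1.33 (edgeR adjusted p = 0.0263), and it was -3.39 without Sox7-null 2. Like Hoxb1 it entered the test only through the wild type. Hoxb4, known for its action in blood stem cells, had 45 and 85 reads against 123, and its log2 fold change of -0.96 ± 0.38 did not pass (edgeR adjusted p = 0.0913). Hoxd4 had 0 and 0 reads against 3.

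Group 5 was carried by Hoxa5, a gene of the lung, foregut and neck skeleton. It had 9 and 16 reads against 54, or 0.668 and 1.16 CPM against 4.07. Both null libraries lay well below the wild type, and Hoxa5 fell by 2.14 ± 0.55 on the log2 scale (edgeR adjusted p = 0.0155), the smallest adjusted p among the 10 Hox genes tested. Hoxb5 had 1 and 2 reads against 5, and Hoxc5 had 0 and 1 against 4.

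**Figure D3:**
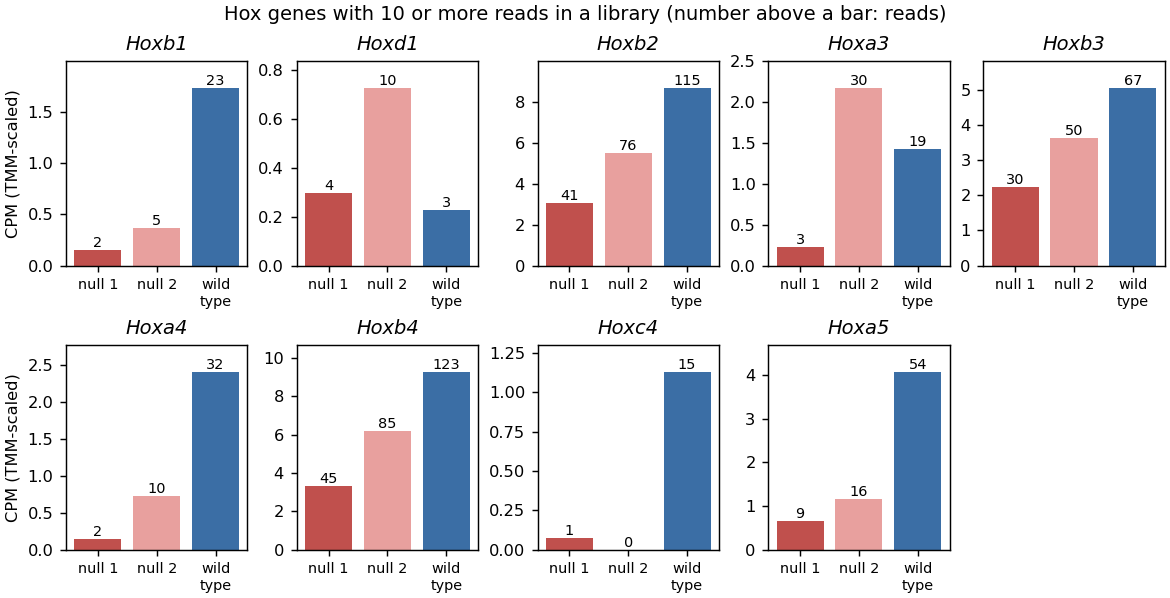
TMM-scaled CPM of 9 of the 10 Hox genes with 10 or more reads in a library, ordered by paralogue group, with 1 bar per library, the read count above it and a separate axis from 0 for each gene. The wild type is above both null libraries in 7 panels, between them for Hoxa3 and below them for Hoxd1.

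Among these 10 genes, 4 were lower and 0 higher at an adjusted p under 0.05 in edgeR's quasi-likelihood test. Across all 13334 genes tested, 10.2% were lower and 11.3% higher. Hoxb1 and Hoxc4, counted among the 4 and in each count below, had to be higher in the wild type to be tested, and Hoxd1 had to be higher in Sox7-null 2, so these counts are a description only. The other 6 Hox genes did not pass. Hoxb2 and Hoxb4 were also lower at an unadjusted p under 0.05 by edgeR. The wild type was above both null libraries for 7 of the 10 and below both for 1, against 43.2% and 42.9% of all genes with 10 or more reads. The log2 fold change was below 0 for 8 of the 10 and for 49.2% of all tested genes. Sox7-null 2 lay above Sox7-null 1 for 9 of the 10, against 49.5% of all such genes, so the null libraries differed in a shared direction across the Hox genes. The 4 calls depend on the tool. DESeq2 passed 0 of the 10, gave no adjusted p for 6 of them, these 4 included, and had Hoxa5 alone at an unadjusted p under 0.05. With the trend on transcript length and GC removed, Hoxa5 (edgeR adjusted p = 0.0377) and Hoxc4 (edgeR adjusted p = 0.0378) passed and Hoxa4 (0.0578) and Hoxb1 (0.0534) did not.

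**Figure D4:**
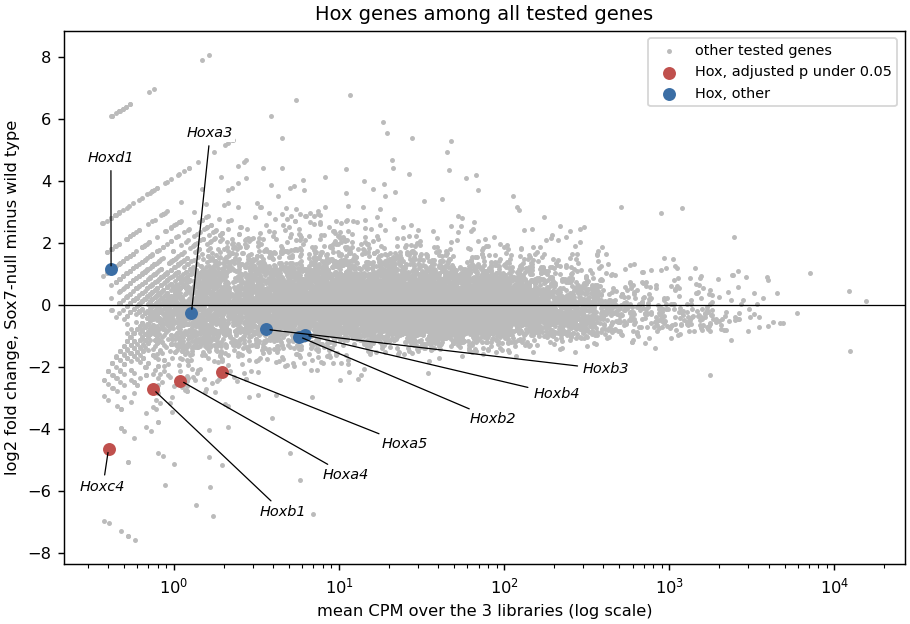
Log2 fold change of Sox7-null minus wild type against the mean CPM over the 3 libraries on a log axis, for the other tested genes (grey) and 9 of the 10 tested Hox genes (red where edgeR's adjusted p was under 0.05, blue otherwise). The 4 red points, Hoxa5, Hoxa4, Hoxb1 and Hoxc4, lie at mean levels near or below 2 CPM, where grey points also spread widely, and the more abundant Hoxb2, Hoxb3 and Hoxb4 lie close together near a value of -1.

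Per transcript length, Hoxb4 led in every library, with RPKM (reads per kilobase of transcript, scaled to library size) of 1.33 and 2.43 in the nulls against 3.48. In the wild type Hoxb2 (2.66 RPKM), Hoxa5 (2.09), Hoxb3 (1.52) and Hoxa4 (1.46) followed. Hoxb1 stood at 0.800, Hoxa3 at 0.532, Hoxc4 at 0.513 and Hoxd1 at 0.117. The 95% Poisson intervals of every pair of neighbours among these 9 genes overlapped (Hoxb4 2.89 to 4.15, Hoxb2 2.20 to 3.19), so neighbours cannot be ranked at this depth. In the null libraries Hoxb2 stood at 0.996 and 1.78 RPKM, and Hoxa5 at 0.365 and 0.626.

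The remaining 22 genes with reads had fewer than 10 in every library and were not tested. For 12 of them all reads came from the wild type, against 15.1% of the 3831 genes of the series with such low counts. With Sox7-null 1 or Sox7-null 2 left out, this number was 16 and 14, against 24.9% and 25.7% of such genes. Another 8 had reads in the wild type and a null library. Hoxb8 and Hoxd13 had reads only in Sox7-null 2, with 1 and 2, whereas 27.9% of the low-count genes had reads only in the null libraries. The low-count Hox genes were thus found in the wild type alone more often than low-count genes at large, by count and without a test.

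Groups 10 and 11, which pattern the lumbar and sacral body, the limbs and the kidney, were detected only in the wild type. All 6 of their genes had reads in the wild type and 0 in both null libraries. Hoxa10 had 8 wild-type reads, Hoxc10 had 7 and Hoxd10 had 3, which puts the group 10 sum 12.3-fold above a floor of 3 counts over the null group. Hoxd11 had 6, Hoxa11 had 4 and Hoxc11 had 1, as a group 7.54-fold above that floor. Both folds leave out the counting error of the wild-type reads. Hoxd12 had 2 wild-type reads. In group 9, Hoxd9 had 1 and 0 reads against 4, Hoxb9 had 1 and 0 against 2, and Hoxc9 had 0 and 0 against 2. Group 7 (Hoxa7 and Hoxb7) had 4 reads, all in the wild type. In group 8, Hoxc8 had 2 and 0 against 5 and Hoxd8 0 and 0 against 3, and in group 6 only Hoxc6 was seen, with 1 and 0 against 3. Group 13, the terminal group, had no read in the wild type.

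Several transcripts of the tail bud were also found mainly in the wild type. Of 7 tail bud markers, T, the brachyury gene of the notochord and tail bud, had 0 and 0 reads against 19. Its wild-type level was 13.02-fold above a floor of 3 counts over the null group, without the counting error of the wild-type reads. It was lower in the null libraries (edgeR adjusted p = 0.00922, with no adjusted p from DESeq2). T entered the test only through the wild type, so it had to differ. Cdx2 and Cdx4, which encode activators of trunk Hox genes, had 0 and 1 against 9 and 0 and 0 against 7. Their relative Cdx1, not among these markers, went the other way, with 3 and 2 against 0. Fgf17 had 5 reads and Wnt3a 3, all in the wild type, while Nkx1-2 had 0 everywhere. The seventh, Gdf11, had 57 and 81 against 55, and the summed level of the list was 4.23 and 5.95 CPM for the nulls against 7.39. Evx1, the homeobox gene beside the Hoxa cluster, also had reads only in the wild type, with 3. The part of tail tissue in the Hox difference was not tested.

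Other tissues along the body axis gave less uniform values. Foregut endoderm and liver bud markers summed to 17.4 and 15.2 CPM for the nulls against 54.3. Sox17 alone gave 14.6 and 10.6 CPM of the null sums, against 2.41 in the wild type. Of 10 tested, 7 were lower and 1, Sox17, higher in edgeR, against 10.2% and 11.3% of all tested genes. Of the 7, Foxa1, Afp, Alb, Ttr and Hnf4a reached 10 reads only in the wild type, so they had to be lower in the null libraries to be tested. Among the 7, Afp, made by the yolk sac and liver bud, had 1 and 4 reads against 271. Intermediate mesoderm markers summed to 6.90 and 10.7 against 15.5 CPM, with 0 of 2 tested genes called by edgeR, 1 at an unadjusted p under 0.05 and 1 called by limma-voom. Neural tube markers summed to 36.3 and 22.7 against 29.9 CPM, with Sox1, Nkx6-1, Dbx1 and Neurog2 at 0 in every library. Most of this sum came from Tubb3 (25.1, 11.2 and 13.5) and Irx3 (9.12, 10.2 and 14.6). Somite markers summed to 35.2 and 38.4 against 26.8 CPM, of which Foxc2 alone gave 31.5, 36.0 and 23.8, with Pax1, Pax3, Myf5 and Uncx at 0 everywhere. Limb and lateral plate markers summed to 59.5 and 74.2 against 72.2 CPM, of which Hand1, abundant in heart, gave 49.2, 58.0 and 54.4. Prrx1 of the limb mesenchyme had 4.67 and 6.82 against 10.9 CPM (edgeR adjusted p = 0.0667). The hindlimb genes Tbx4 and Pitx1 had 5 reads or fewer. Neural crest markers summed to 77.1 and 70.5 against 48.9 CPM, of which Ets1, also an endothelial gene and the 1 member called higher, gave 70.4, 64.7 and 42.8. Sox10 had 0 and 1 reads against 11. Second heart field markers summed to 297 and 320 against 272 CPM. Most of this came from Mef2c (180, 196 and 171) and Tbx5 (76.9, 82.7 and 53.7), so the sum says little about the other markers. Of 10 tested, 0 passed in edgeR, DESeq2 or limma-voom. In edgeR 2 had an unadjusted p under 0.05, and 1 passed with upper-quartile factors. Endothelial markers summed to 383 and 388 against 408 CPM, with 1 of 6 higher and 2 lower in edgeR, against 11.3% and 10.2% of all tested genes. Epicardial and septum transversum markers summed to 452 and 362 against 331 CPM, of which Gata4 gave 206, 205 and 156. Among them Wt1 was higher and Lhx2, tested only through the wild type, lower (5 and 2 reads against 58). The part of these tissues in the Hox difference was not tested.

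The TALE partners of Hox proteins included Pbx4 at 1.06 CPM and Pbx2 at 151 CPM in the wild type. Of 9 tested, 0 passed in edgeR, 0 in DESeq2 and 0 in limma-voom, and 2, Pbx3 and Meis3, had an unadjusted p under 0.05 in edgeR. Meis2 had 114 and 114 CPM against 87.3, and Meis1 66.2 and 63.4 against 53.5. Pbx3 (log2 fold change -0.56 ± 0.21, edgeR adjusted p = 0.0780) and Meis3 (-0.78 ± 0.30, edgeR adjusted p = 0.0820) were the lowest of the list, and the list median was 0.28 beside 0.014 for all tested genes.

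Of 12 tested upstream regulators, 2 rose and 0 fell, with a list median of 0.49. Over all tested genes 11.3% rose and 10.2% fell, so this count is near the background. The retinoic acid receptor gene Rara had 672 and 532 reads against 250 and rose by 1.23 ± 0.24 on the log2 scale (edgeR adjusted p = 0.00423). Cyp26b1, which encodes an enzyme that degrades retinoic acid, had 253 and 192 reads against 95 and rose by 1.19 ± 0.30 (edgeR adjusted p = 0.0143), though not with DESeq2 (adjusted p = 0.0545) or with the length and GC trend removed (edgeR adjusted p = 0.0960). Aldh1a2, the enzyme gene for retinoic acid synthesis, had 223 reads in Sox7-null 1 and 70 in Sox7-null 2, against 55. Its null libraries differed by more than Sox7-null 2 and the wild type, and it did not pass (log2 fold change 1.38 ± 0.55, edgeR adjusted p = 0.0924). Rarb, itself a retinoic acid target, had 439 and 327 reads against 242, and its log2 difference was 0.62 ± 0.25 (edgeR adjusted p = 0.0940).

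**Figure D5:**
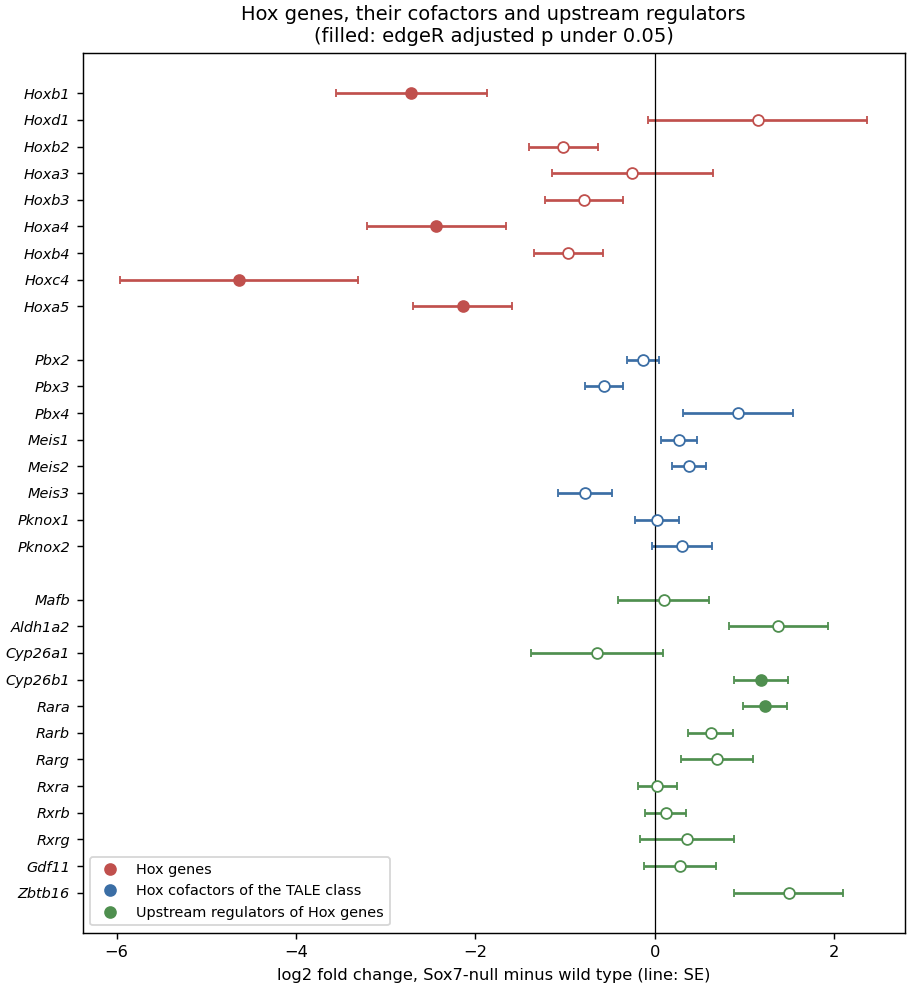
Log2 fold change of Sox7-null minus wild type with its SE (lines) for 9 of the 10 tested Hox genes, 8 of the 9 TALE cofactors and the 12 tested upstream regulators; filled points had an edgeR adjusted p under 0.05. The 4 filled Hox points lie left of 0, the cofactors hold no filled point, and the 2 filled regulators, Cyp26b1 and Rara, lie right of 0.

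Among 20 Polycomb and trithorax genes, which keep Hox chromatin silent or open, 3 rose and 1 fell, with a list median of 0.09, again near the 11.3% and 10.2% of all tested genes. Kdm6b, which encodes a demethylase of the silencing mark, rose by 1.54 ± 0.24 (edgeR adjusted p = 0.00125), or by 0.90 without the length and GC trend (edgeR adjusted p = 0.0235). The Polycomb-associated gene Jarid2 rose by 1.09 ± 0.22 (edgeR adjusted p = 0.00494). Ezh2, the methyltransferase that writes the mark, fell by 0.61 ± 0.20 (edgeR adjusted p = 0.0441), but not with DESeq2 (adjusted p = 0.101), with unscaled library sizes (0.0561) or once the length and GC trend was taken out (0.248). Of 11 tested genes that flank the clusters, 2 rose and 2 fell, with a list median of -0.02, beside 21.6% of all tested genes called in either direction. Calcoco1 (log2 fold change 1.60, edgeR adjusted p = 0.00314) and Hnrnpa1 (113 and 112 reads against 51, edgeR adjusted p = 0.0421) rose, and Mtx2 (log2 fold change -0.84, edgeR adjusted p = 0.00554) and Atp5g3 (log2 fold change -0.84, edgeR adjusted p = 0.00263) fell. Skap2, beside the Hoxa cluster, with a log2 difference of -0.02 ± 0.31 (edgeR adjusted p = 0.976), did not pass. Hnrnpa1 did not pass with DESeq2 or limma-voom, and Atp5g3 did not pass without the length and GC trend (-0.16). Of 10 noncoding and embedded transcripts of the clusters, 6 had 0 reads everywhere, including the genes of miR-10a and miR-10b, and no other had more than 2 in a library. Of 13 other homeobox genes of the body axis, Meox1 (23 and 11 reads against 26) and Otx2 (13 and 3 against 15) were tested and neither passed, with 0 at an unadjusted p under 0.05 in edgeR or DESeq2.

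Some Hox counts are uncertain because genes share sequence space. In GENCODE M21, 52.9% of the exonic length of Hoxb3 and 27.3% of that of Hoxb2 lie opposite the antisense gene Hoxb3os, and 16.0% of Hoxa4 lies opposite Gm29430. The same holds for 35.0% of Hoxa11 (Hoxa11os) and 20.4% of Hoxa7 (Hoxaas3), which had reads only in the wild type. The library kit named in the labels keeps strand, but whether counting used it is not given in the sources used here, so reads of these pairs cannot be told apart. Hoxc10 shares 8.70% of its exonic length with Hoxc5, and Hoxd4 shares 13.2% with Hoxd3. On the same strand, Gm28230 covers 53.1% of Hoxd3 and 39.15% of Hoxd4. Gm28309 likewise covers 10.8% of Hoxd11 and 5.73% of Hoxd10, which had reads only in the wild type. Hoxa3 overlaps several genes, none by more than 8.36% of its length (Hoxaas2). None of the overlaps in that annotation touched Hoxb1, Hoxc4, Hoxa5 or Hoxa10.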

How the data were processed

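RNA from 2 Sox7-null heart tube libraries and 1 wild-type library was sequenced after stranded total RNA preparation, per the labels' protocols. The deposited values are raw read counts per gene symbol, made by the authors with CASAVA, TopHat2 and HTSeq, per the submitters' processing notes, which also name DESeq2 1.10.1. Those notes name human genome builds while the files hold mouse symbols, and the extraction protocol names retinal organoids, so no gene coordinates are given apart from RefSeq promoter windows. Left out of library sizes were reads outside genes (8.10% and 8.52% for the nulls, 11.7% for wild type), reads not placed uniquely (10.4%, 11.6%; 22.3%) and ambiguous ones (2.27%, 2.29%; 1.97%).

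Counts were fitted across all genes with edgeR 4.0.16 in R 4.3.3 (quasi-likelihood test, TMM factors, filterByExpr with a minimum count of 10, Benjamini-Hochberg adjustment, threshold 0.05), with 13334 genes kept and 10003 left out. The fit had 1 residual degree of freedom, 11.8 prior degrees of freedom and a biological coefficient of variation of 15.0%. Fold changes are null over wild type. Ratios of wild type to null use exact binomial intervals on TMM-scaled library sizes, and the floor is 3 counts over the group. RPKM used the longest GENCODE M21 transcript. Alternatives were DESeq2 1.42.0, limma-voom (limma 3.58.1), other scalings, no filter, a fit without the length and GC trend (mgcv 1.9.3, values for 99.0% of tested genes), other read thresholds and leaving out each null library. Tested on simulated data for 2 null libraries against 1 wild type (13201 genes), the fit recovered 39 of 94 genes changed by 1 on the log2 scale, 50 of 54 changed by 2 and 48 of 52 changed by 3, with 3 false calls. Every simulated gene and library, the wild type included, had the same coefficient of variation, near the fitted 15.0%. Changed genes were drawn from all tested genes. The simulation therefore cannot show how calls fare where the wild-type library varies on its own, or for genes as sparse as the Hox genes. Hox genes with 10 or more reads in a library were named, other Hox genes were named where they had reads, and up to 4 members past the threshold were named from each related list, with others as needed. The members and lists were chosen with earlier results of these data known. Some genes in these lists are not reported here by name.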

Additional observations from a re-analysis of the deposited data

How the results depend on the processing

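Across all genes 2874 were called, 1508 higher and 1366 lower. DESeq2 called 1649 (967 higher, 682 lower), and the fit without the length and GC trend called 1769, of which 737 were lower. With no filter on low counts edgeR called 0 in either direction, although 4113 had an unadjusted p under 0.05 (2147 higher, 1966 lower; DESeq2 3041 in all), and the prior degrees of freedom were 3.23 instead of 11.8. The number of Hox genes called lower was 4 with limma-voom, unscaled library sizes and upper-quartile factors, 2 without the length and GC trend, 0 with DESeq2 (1 at an unadjusted p under 0.05) and 0 with no filter (4 at an unadjusted p under 0.05). With no filter the adjusted p was 0.126 for Hoxa5, 0.128 for Hoxc4, 0.138 for Hoxb1 and 0.185 for Hoxa4. Calls in the related lists went from 10 to 0 with no filter (16 at an unadjusted p under 0.05) and lay between 7 and 11 under the others. Where no value is given beside such a change, the cause was not tested.

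Leaving out a null library gave 1 library against 1, with no residual degrees of freedom and no test. The log2 ratio of all Hox reads, -1.11, was -0.73 without Sox7-null replicate 1 and -1.65 without replicate 2. The range over both was -2.54 to -1.78 for Hoxa5, -3.72 to -1.68 for Hoxa4, -3.25 to -2.15 for Hoxb1 and -4.98 to -3.39 for Hoxc4. Hoxa3 reversed to 0.59 without replicate 1 and was -2.50 without replicate 2. Of 72 refitted values of 9 Hox genes, 1 reversed, 6 lost a call and 65 counted as the same. The 65 include values without an adjusted p, where only the direction was compared. Hox genes seen only in the wild type with under 10 reads numbered 12, and 14 to 16 with a null library left out, a choice made after seeing the data. Detection rests on few reads: 16 genes in Sox7-null 1 became 8 at 3 or more reads and 4 at 10 or more, 15 in Sox7-null 2 became 10 and 8, and 30 in the wild type became 24 and 9. No paired analysis was possible because the groups share no replicate number. With a single wild-type library, variation between wild-type tubes cannot be told apart from the effect of genotype.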
